A study of Mus musculus with 12 samples.

Results

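Blood coagulation was followed in mouse liver through 10 genes: the clotting factor genes F2, F5, F7, F9, F10, F11, F12 and F13b, the plasma kallikrein gene Klkb1 and the protein C gene Proc. They were taken by gene symbol from the probe sets of an Affymetrix array, using for each gene the probe set with the highest mean. Of the 10 genes, 9 had a probe set annotated to that gene alone, 1 probe set each, among 22180 genes measured in that way. Klkb1 had only a probe set that is annotated to Cyp4v3 as well, so no value is given for it. RNA came from livers of male C57BL6 mice that started their diets at 6 weeks of age and were killed at 18 weeks, after 12 weeks of free feeding. The 4 groups of 3 arrays were the high-fat diet (45% of energy from fat) with MSX at 0.5% by weight, the plain high-fat diet (high-fat control), the low-fat diet (10% of energy from fat) with MSX at 0.5% by weight, and the plain low-fat diet (low-fat control). MSX stands for a maple syrup extract mixed into the diet. The arrays of a group are labelled as biological replicates, 1 array per sample, and the labels do not say whether any RNA was pooled over mice.

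Clotting factors are mostly made by hepatocytes and circulate as inactive precursors, many of which are cut and activated by another enzyme of the cascade. Factor VII, together with tissue factor, starts the extrinsic branch, and factor XII with plasma kallikrein starts the contact branch. Factor XI can be activated by factor XIIa or by thrombin and in turn activates factor IX, so that it amplifies clotting after it has begun. Both branches meet at factor X, which with its cofactor, factor V, cuts prothrombin (F2) to thrombin. Thrombin makes fibrin, factor XIII cross-links it, and protein C, once activated, cuts the activated form of factor V and so slows the cascade.

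F11 was chosen by its measured difference between high-fat MSX and high-fat control, and the other genes stand beside it as parts of the same cascade. Values of that comparison are therefore given for description, and nothing is read from a threshold there. The low-fat arrays play no part in it, and the extract difference was tested there. That test took the spread of each gene from all 12 arrays, the high-fat ones included, so it is not wholly separate from the choice. The genes were also chosen with results of all 12 arrays known. All values below are levels on the log2 scale of the deposited table, on which a difference of 1 is a doubling, and levels of different probe sets cannot be set against each other.

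The stretches before the transcription starts of F11 and of F2 are shown because they belong to the gene that passed the test below and to the gene of the cascade's central enzyme, which did not. They are the 250 bases before the start in RefSeq (GRCm38.p6), at chr8:45262032-45262281 for F11 and chr2:91636458-91636707 for F2, both on the minus strand and written 5′ to 3′. Capitals mark those matches to the motifs described after them that lie within the printed bases.
F11: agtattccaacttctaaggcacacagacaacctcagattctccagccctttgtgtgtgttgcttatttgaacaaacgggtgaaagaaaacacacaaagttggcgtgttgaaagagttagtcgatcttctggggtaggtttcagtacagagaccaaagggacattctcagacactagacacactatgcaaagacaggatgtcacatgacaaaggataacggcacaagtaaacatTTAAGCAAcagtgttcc
F2: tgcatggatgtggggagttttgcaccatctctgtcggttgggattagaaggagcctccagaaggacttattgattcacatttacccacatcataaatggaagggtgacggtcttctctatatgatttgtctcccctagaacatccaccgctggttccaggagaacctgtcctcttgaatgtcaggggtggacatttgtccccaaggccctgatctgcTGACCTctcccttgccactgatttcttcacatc
RefSeq windows of 300 bases (250 before to 50 after the start) were found for 9 of the 10 genes, Klkb1 included and Proc not. They were searched on both strands for letters known from binding sites of liver transcription factors. AGGTCA, a half-site of nuclear receptors, occurred in the windows of F2, F5, F7, F9 and F10, and in 16.3% of all 32851 windows in the table. TTGCNNAA, bound by C/EBP factors, occurred in the windows of F9, F11 and Klkb1, and in 10.8% of all windows. In F11 it lay 17 to 10 bases before the start, and in F2 the AGGTCA match lay 33 to 28 bases before it. GTTAAT, an HNF1 half-site, occurred in the windows of F2 and F13b (7.1% of all windows), and CAAAGTCCA, an HNF4 site, in 0 of 9 (0.475% of all windows). The GTTAAT match of F2 lay after the start, outside the printed bases. No 2 of the matches in F11 and F2 overlapped. These are matches of letters, and no factor binding was measured.

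F11 encodes factor XI. On the low-fat diet its level was 9.86, 9.78 and 9.39 in the MSX arrays, against 8.91, 8.67 and 8.69 in the control arrays. Every MSX array lay above every control array, with a gap of 0.47 between the groups. The mean was 9.68 ± 0.25 in low-fat MSX and 8.76 ± 0.14 in low-fat control (SD, n = 3 each), so that F11 rose by 0.92 (SE 0.15, 95% interval 0.60 to 1.24), a 1.89-fold difference (1.52 to 2.36). By limma the adjusted p over 22180 genes was 0.0349, and F11 stood at place 19 by p-value. In whole liver, a change in the number of cells that make an RNA and a change in RNA per cell cannot be told apart. An exact permutation of 3 arrays against 3 gave the smallest p it allows, 0.1 (two-sided), as it must for any gene whose groups do not overlap.

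The F11 difference stayed positive, but its place near the threshold did not hold when single arrays were left out. Only the low-fat arrays enter the difference, so leaving out a high-fat array could move the p-value but not the difference. With each of the 12 arrays left out in turn the difference was between 0.83 and 1.06 and the limma adjusted p between 0.0135 and 0.164. The call was lost in 8 of the 12 cases: without low-fat control replicate 1, 2 or 3, low-fat MSX replicate 1 or 2, high-fat control replicate 2, or high-fat MSX replicate 1 or 3. It was kept without low-fat MSX replicate 3, the lowest F11 value of its group. With the 6 low-fat arrays alone in the fit, so that no high-fat array entered the spread, the limma adjusted p was 0.152.

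On the high-fat diet F11 was at 9.61, 9.82 and 9.64 in the MSX arrays, against 8.47, 8.66 and 8.84 in the control arrays. These groups did not overlap either, and their means were 9.69 ± 0.11 in high-fat MSX and 8.66 ± 0.19 in high-fat control (SD, n = 3 each). The difference was 1.03, a 2.04-fold one, and is the value by which the gene was picked. Without high-fat control replicate 1, which holds the lowest F11 value of the 12 arrays, it was 0.94. The difference on the high-fat diet exceeded that on the low-fat diet by 0.11 (SE 0.21). No test is given because the high-fat arrays chose the gene.

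Ordered by mean, the F11 levels were 9.69 in high-fat MSX, 9.68 in low-fat MSX, 8.76 in low-fat control and 8.66 in high-fat control. The MSX groups overlapped, and so did the control groups. High-fat minus low-fat was 0.01 with MSX and −0.10 without it, given without a test since each shares arrays with the comparison that picked F11. In the 12 arrays together, the 6 without MSX were between 8.47 and 8.91 and the 6 with it between 9.39 and 9.86.

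**Figure D1:**
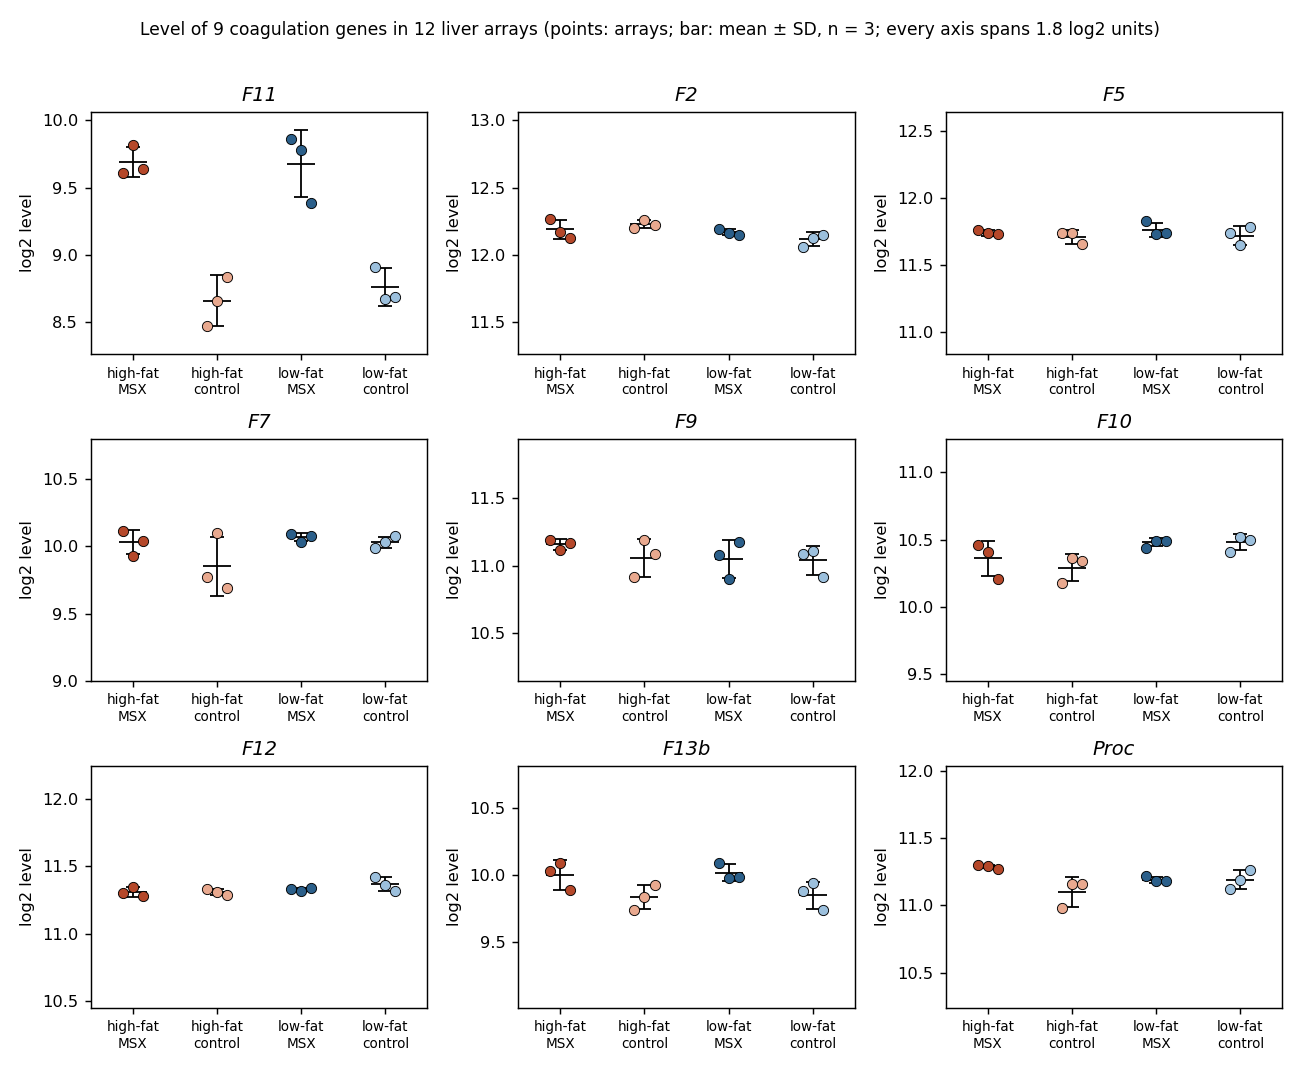
Level of each of the 9 measured coagulation genes (vertical axis, log2 level, the same span in every panel) in the 4 groups (horizontal axis), with 1 point per array and bars for the mean and SD of 3 arrays. F11 lies between 9.39 and 9.86 in the MSX arrays of both diets and between 8.47 and 8.91 in the controls, while the range over 12 arrays of each other gene is at most 0.41.

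Genes of the contact and intrinsic steps, which act just before and after factor XI, were next. F12, the factor of contact activation, was at 11.33, 11.32 and 11.34 in low-fat MSX and at 11.42, 11.36 and 11.32 in low-fat control. The groups overlapped, and the difference was −0.04 (95% interval −0.25 to 0.17, limma adjusted p = 0.946). F12 was the steadiest of the 9 genes, with a range of 0.14 over the 12 arrays. F9, the factor that factor XIa activates, was at 11.08, 10.90 and 11.18 in low-fat MSX and at 11.09, 11.11 and 10.92 in low-fat control. Its values were intermingled, with a difference of 0.01 (95% interval −0.24 to 0.27, limma adjusted p = 0.992).

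In the extrinsic and common steps, F7, the factor that pairs with tissue factor, averaged 10.07 ± 0.03 in low-fat MSX and 10.03 ± 0.04 in low-fat control (SD, n = 3 each). F10, the precursor of the enzyme that cuts prothrombin, averaged 10.48 ± 0.03 in low-fat MSX and 10.48 ± 0.06 in low-fat control. F5, the cofactor of that enzyme, averaged 11.76 ± 0.05 in low-fat MSX and 11.72 ± 0.07 in low-fat control. F2, prothrombin, averaged 12.17 ± 0.02 in low-fat MSX and 12.12 ± 0.05 in low-fat control. In all 4 genes the groups overlapped, the differences lay between 0.00 in size and 0.05, and the limma adjusted p was between 0.932 and 0.998. The 95% intervals of these 4 genes ran from −0.24 at the lowest to 0.29 at the highest.

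F13b, the carrier subunit of factor XIII, was at 10.09, 9.98 and 9.99 in low-fat MSX and at 9.88, 9.94 and 9.74 in low-fat control. Every MSX array was above every control array, yet the difference of 0.17 did not pass the test (SE 0.11, 95% interval −0.07 to 0.41, limma adjusted p = 0.735). On the high-fat diet F13b averaged 10.00 ± 0.11 with MSX and 9.84 ± 0.09 in the control (SD, n = 3 each), a difference of 0.17, with groups that overlapped. Proc, the precursor of the anticoagulant protein C, was at 11.22, 11.18 and 11.18 in low-fat MSX and at 11.12, 11.19 and 11.26 in low-fat control, with a difference of 0.01 (95% interval −0.21 to 0.23, limma adjusted p = 0.994). On the high-fat diet it was at 11.30, 11.29 and 11.27 with MSX and at 10.98, 11.16 and 11.16 in the control, where the groups did not overlap and the difference was 0.19.

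Of the 9 genes, 1 passed the limma threshold (adjusted p under 0.05) for the extract on the low-fat diet, F11, and 0.158% of all genes passed it (35 of 22180, 14 higher and 21 lower). None of the other 8 had an unadjusted p under 0.05 there. The median difference of the 9 genes was 0.03, beside 0.00 in size for all genes. The groups did not overlap for 2 of the 9, F11 and F13b, both higher with MSX, and for 13.9% of all genes. On the high-fat diet 0.0361% of all genes were past the same threshold, and of the 9 genes F11 was, which its choice on that comparison fixed and which is no further evidence. Groups did not overlap there for 2 of 9, F11 and Proc, and for 12.2% of all genes. The other 8 differences on that diet lay between −0.04 and 0.19, those of F12 (0.00 in size), F5 (0.03), F10 (0.06) and F9 (0.10) among them, and the largest after Proc were those of F7 and F13b (0.17 each).

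A shift common to the genes of an array was taken out by expressing F11 relative to the mean of the other 8 genes in the same array. Scaling that depends on the level of a gene is not removed in this way. On the low-fat diet this value was −1.17, −1.19 and −1.63 with MSX and −2.05, −2.32 and −2.28 in the control, a difference of 0.88. On the high-fat diet it was −1.44, −1.2 and −1.33 with MSX and −2.39, −2.33 and −2.08 in the control, a difference of 0.95. The mean of the 8 genes itself was 11.01 in low-fat MSX and 10.97 in low-fat control.

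**Figure D2:**
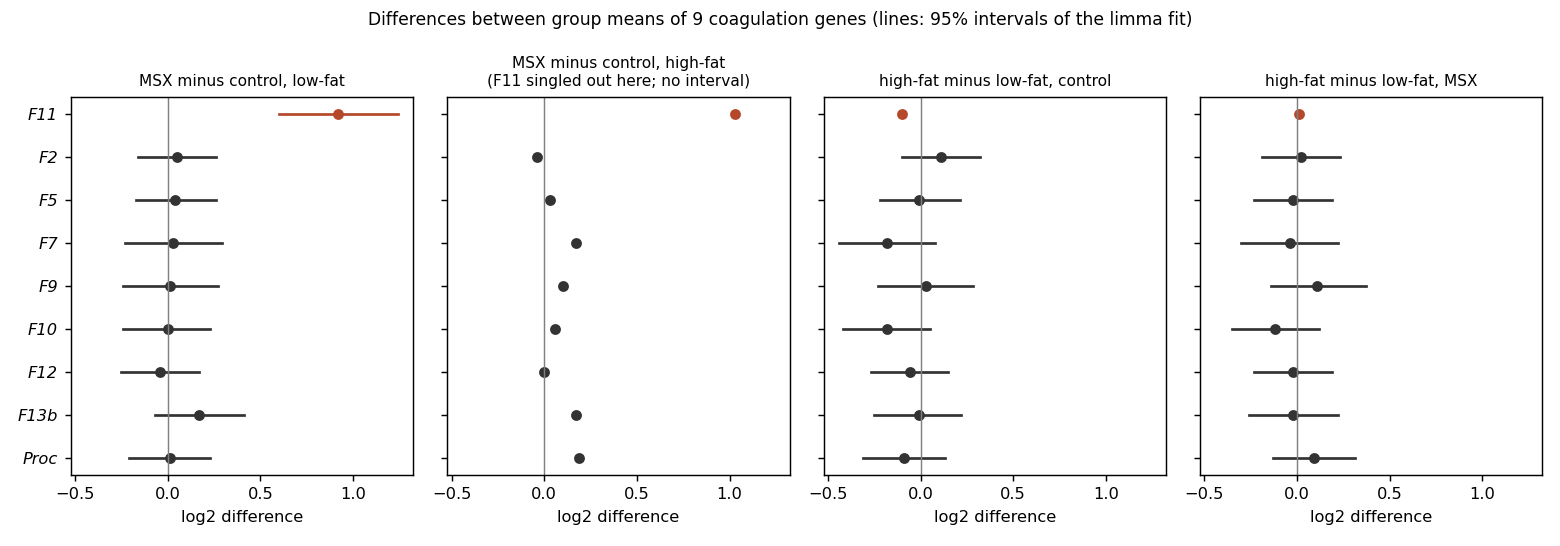
Differences between group means on the log2 scale (horizontal axes) for the 9 genes (rows), in 4 comparisons (panels), each first-named group minus second. Lines are 95% intervals of the limma fit, left out on the high-fat diet, where F11 was chosen, and for F11 in both diet comparisons. F11 stands at 0.92 for the extract on the low-fat diet, with an interval from 0.60 to 1.24, and the intervals of the other 8 genes in that panel lie between −0.25 and 0.41.

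The high-fat diet by itself was compared in the arrays without MSX. Of the 8 genes tested (all but F11), 0 passed the limma threshold and 0 had an unadjusted p under 0.05, where 0.018% of all genes passed (4 of 22180). F10 was at 10.18, 10.36 and 10.34 in high-fat control and at 10.41, 10.52 and 10.50 in low-fat control. All high-fat arrays were below all low-fat ones, with a difference of −0.18 (SE 0.11, limma adjusted p = 0.8). F2 was at 12.20, 12.26 and 12.22 in high-fat control and at 12.06, 12.13 and 12.15 in low-fat control, higher in every high-fat array, with a difference of 0.11 (SE 0.10, limma adjusted p = 0.889). These were the 2 of 9 genes whose groups did not overlap, which held for 11.4% of all genes. F7 was at 9.77, 10.10 and 9.69 in high-fat control and at 9.99, 10.03 and 10.08 in low-fat control, with a difference of −0.18 (SE 0.12, limma adjusted p = 0.834). High-fat control replicate 2 was the highest and the other arrays of that group were the lowest for F7. The remaining differences were −0.09 for Proc, −0.06 for F12, −0.01 for F5 and for F13b, and 0.03 for F9.

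With MSX in both diets, again 0 of the 8 genes tested passed, and 0 had an unadjusted p under 0.05. Of all genes 0.0% passed by limma in that comparison, and 1012 had an unadjusted p under 0.05. The 8 differences between high-fat MSX and low-fat MSX lay between −0.12 (F10) and 0.11 (F9). Proc was at 11.30, 11.29 and 11.27 in high-fat MSX and at 11.22, 11.18 and 11.18 in low-fat MSX, and was the 1 gene of 9 with groups apart, beside 9.44% of all genes. Its difference of 0.09 did not pass the test (SE 0.10, limma adjusted p = 0.999).

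The 9 genes differed in how much they varied between arrays of one group. The pooled SD within groups was 0.181 for F11 and 0.12 for F7, 0.114 for F9, 0.092 for F13b and 0.088 for F10. It was 0.065 for Proc, 0.05 for F5, 0.046 for F2 and 0.033 for F12. The median of the 1318 genes with a mean level of at least 9 was 0.132, with F11 above it and the other 8 genes below it. Over all genes the median was 0.19, with F11 and the other 8 genes below it. Across the 12 arrays, the correlation with F11 was 0.82 for F13b and 0.63 for Proc and lay between −0.18 and 0.40 for the others. With group means removed it was 0.53 for F13b, 0.30 for Proc and between −0.26 and 0.21 for the others. These correlations describe 12 arrays that share the group differences, and no test was made.

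Other genes of the clotting system were read from 4 lists, of which 35 of 37 genes were measured. None of the 35 passed the limma threshold for the extract on the low-fat diet or for the diet in either extract state, with lowest adjusted p of 0.534, 0.575 (without MSX) and 0.999 (with MSX). An unadjusted p under 0.05 was found for 2 of the 35 for the extract on the low-fat diet (8.05% of all genes), 7 for the diet without MSX (6.78% of all genes) and 0 for the diet with MSX (4.56% of all genes). For the extract, the groups did not overlap for 11 of the 35 on the low-fat diet (13.9% of all genes) and 8 on the high-fat diet (12.2%). For the diet, they did not overlap for 5 without MSX (11.4%) and 1 with MSX (9.44%). On the low-fat diet their median difference with MSX was 0.10, within a range from −0.28 to 0.34, and on the high-fat diet it was −0.01, within a range from −1.28 to 0.34. The lowest there was Gas6, a vitamin K-dependent ligand of receptor kinases, which averaged 7.65 ± 0.57 in high-fat MSX and 8.93 ± 0.33 in high-fat control (SD, n = 3 each). Nqo1, a quinone reductase, averaged 5.51 ± 0.26 in high-fat MSX and 6.21 ± 0.19 in high-fat control, a difference of −0.71.

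Of 11 procoagulant genes, 8 had a positive difference with MSX on the low-fat diet, with a median of 0.17. The fibrinogen chain genes Fga, Fgb and Fgg had differences of 0.18, 0.15 and 0.16. Lman1, a cargo receptor that carries factors V and VIII through the secretory path, was at 10.55, 10.32 and 10.67 in low-fat MSX and at 10.33, 10.18 and 10.21 in low-fat control, with a difference of 0.28 (limma adjusted p = 0.588). Lman1 overlapped between the groups. F3, tissue factor, had a difference of 0.32 (limma adjusted p = 0.718). Under the high-fat diet without MSX, Vwf, the platelet-binding carrier of factor VIII, differed by 0.30 (limma adjusted p = 0.73) and Fga by 0.24 (limma adjusted p = 0.756).

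Of 13 inhibitors of coagulation, 10 had a positive difference with MSX on the low-fat diet, with a median of 0.10. Tfpi, an inhibitor of factor VIIa with tissue factor, differed by 0.24 and Serpind1, heparin cofactor II, by 0.17, with limma adjusted p of 0.678 and 0.718. Under the high-fat diet without MSX, Thbd, the thrombin receptor that turns thrombin towards protein C, was at 5.93, 6.18 and 6.30 in high-fat control and at 5.72, 5.5 and 5.80 in low-fat control. The groups did not overlap, and the difference of 0.46 did not pass (SE 0.15, limma adjusted p = 0.575). Serpina10, an inhibitor of factor Xa, was at 10.43, 11.02 and 10.55 in high-fat control and at 10.12, 10.14 and 10.21 in low-fat control, a difference of 0.51 (SE 0.20, limma adjusted p = 0.663).

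In the plasminogen system, which dissolves fibrin, 3 of 6 genes had a positive difference with MSX on the low-fat diet. Plg, plasminogen, differed by 0.11 and Hrg, a plasma protein that binds plasminogen, by −0.10 (limma adjusted p of 0.827 and 0.859). Under the high-fat diet without MSX, the plasminogen activators Plau and Plat differed by 0.39 and 0.43 (limma adjusted p of 0.73 and 0.797). In the vitamin K cycle, which several clotting factors need for gamma-carboxylation, 2 of 5 genes were positive with MSX on the low-fat diet. Ggcx, the carboxylase itself, was at 9.96, 9.72 and 9.84 in low-fat MSX and at 9.38, 9.42 and 9.69 in low-fat control. All MSX arrays were higher, and the difference of 0.34 did not pass (SE 0.13, limma adjusted p = 0.534). Nqo1 had a difference of −0.25 (limma adjusted p = 0.761). Under the high-fat diet without MSX, Gas6 differed by 0.72 (limma adjusted p = 0.581) and Nqo1 by 0.42 (limma adjusted p = 0.698).

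**Figure D3:**
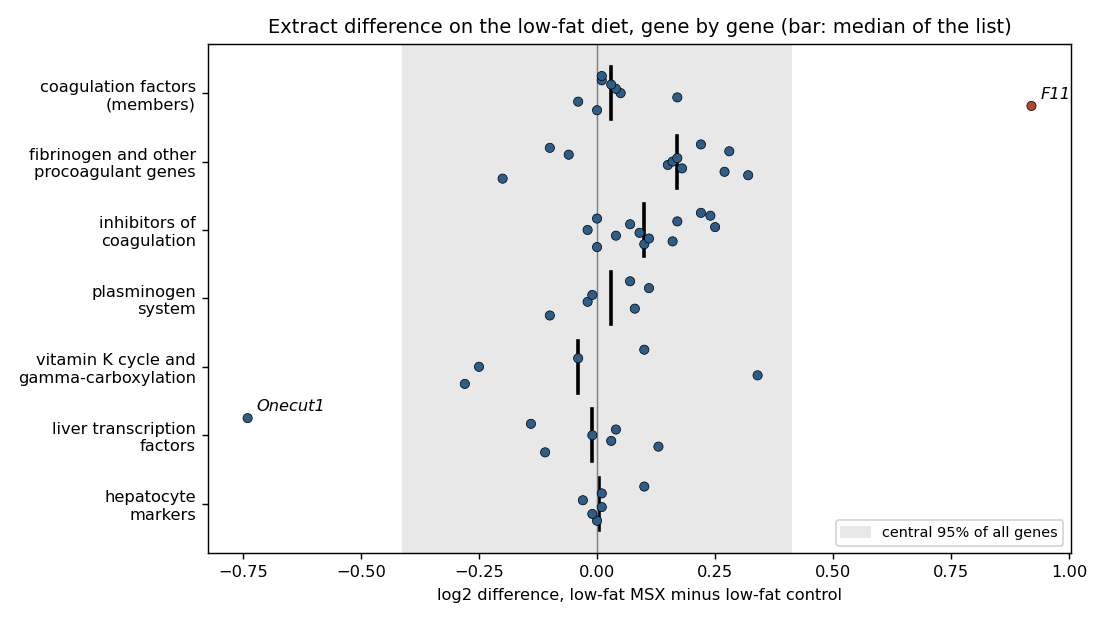
Difference between low-fat MSX and low-fat control on the log2 scale (horizontal axis) for each measured gene of 7 lists (rows, the measured coagulation factors first), with a bar for the median of a list and a grey band for the central 95% of 22180 genes (−0.41 to 0.41). F11 at 0.92 lies outside the band, as does Onecut1 at −0.74, and the other clotting genes lie within it.

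Transcription factors known for liver gene expression were set beside these. Of 7 measured, 0 passed the limma threshold in the 3 tested comparisons, and 0 had an unadjusted p under 0.05. Hnf4a, a nuclear receptor on which many clotting factor genes depend, had a difference of −0.01 with MSX on the low-fat diet and of 0.02 on the high-fat diet (SE 0.15 each). Its arrays were scattered in low-fat control (SD 0.35) and close together in low-fat MSX (SD 0.02). Cebpa and Cebpb, factors of the C/EBP family, had differences of −0.11 and 0.13 on the low-fat diet. Onecut1, a hepatocyte nuclear factor, was at 6.81, 7.10 and 10.36 in low-fat MSX and at 8.90, 8.86 and 8.73 in low-fat control. The MSX arrays of Onecut1 lay on both sides of the controls, with a difference of −0.74 (SE 0.73, limma adjusted p = 0.845). Nr2f2, an orphan nuclear receptor, differed by −0.14 on the low-fat diet (limma adjusted p = 0.865). Under the high-fat diet without MSX the differences were −1.16 for Onecut1 and −0.19 for Nr2f2 (limma adjusted p of 0.82 and 0.877).

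The tissue label was checked against 6 measured hepatocyte markers, whose summed level lay between 15.58 and 15.68 on the log2 scale in the 12 arrays. With MSX on the low-fat diet their differences were between −0.03 (Apoc3) and 0.10 (Ttr), and the summed level was 15.64 to 15.66 in low-fat MSX and 15.63 to 15.64 in low-fat control. Of 46 markers of other cell types, 38 were measured and 0 passed the limma threshold in that comparison (lowest adjusted p 0.196, Lrat), while 4 had an unadjusted p under 0.05, beside 8.05% of all genes. Some of them nonetheless had a higher group mean in low-fat MSX, where F11 was higher too. Of 7 endothelial markers 7 were above 0 (median 0.27), of 7 macrophage and Kupffer cell markers 6 (median 0.36), and of 7 stellate cell and matrix markers 7 (median 0.19). The summed endothelial level was 11.07 to 11.38 in low-fat MSX and 10.77 to 11.29 in low-fat control, with overlap. The macrophage level was 10.36 to 10.78 in low-fat MSX and 10.15 to 10.67 in low-fat control, and the stellate level 11.16 to 11.40 in low-fat MSX and 10.97 to 11.23 in low-fat control, both with overlap. Dcn, the brightest stellate marker, weighs most in that sum and differed by 0.03. The median deviation of the stellate markers from their 12-array means was 0.09, −0.02 and 0.3 in low-fat MSX. It was −0.34, −0.2 and −0.04 in low-fat control, without overlap. By that measure the endothelial and macrophage markers overlapped. The smooth muscle genes Acta2 and Myh11 summed to 7.38 to 8.55 in low-fat MSX and 7.08 to 7.36 in low-fat control, without overlap. On the high-fat diet, where F11 differed by 1.03, 1 of 7 stellate markers was above 0 with MSX (median −0.38, lowest −1.09 for Col1a1), and the summed level was 10.82 to 11.24 in high-fat MSX and 11.17 to 11.89 in high-fat control. Of 7 macrophage markers 4 were above 0 there (median 0.03) and of 7 endothelial markers 6 (median 0.10). All 6 measured hepatocyte markers were above 0 there (median 0.09), with a summed level of 15.63 to 15.68 in high-fat MSX and 15.58 to 15.59 in high-fat control, without overlap. The part of these cells in the F11 differences was not tested. Platelet and megakaryocyte markers had a median of −0.07 on the low-fat diet. High-fat control replicate 1 held more stellate (11.89), cholangiocyte (7.96) and lymphocyte (7.97) marker signal than any other array, and the F11 difference without it is given above.

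F11 has Gm6329, a long noncoding RNA gene, and Klkb1 as its neighbours in the gene table. Gm6329 averaged 2.79 ± 0.16 in low-fat MSX and 2.72 ± 0.16 in low-fat control (SD, n = 3 each), with a difference of 0.07 (limma adjusted p = 0.922). Klkb1 could not be read alone. Cyp4v3, a cytochrome gene on its far side that was looked up after the values were seen, averaged 11.46 ± 0.15 in low-fat MSX and 11.40 ± 0.13 in low-fat control, a difference of 0.06 (limma adjusted p = 0.934).

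The genes whose levels ran most like those of F11 were sought by Pearson correlation over the 12 arrays, among 11500 other genes with a mean level of at least 5. The 5 highest were Nox4, a NADPH oxidase (0.96), Pcmtd2 (0.95), and Abcb10, a mitochondrial transporter, Cd99l2 and Cyp2u1, a cytochrome (0.94 each). For all 5 the MSX arrays lay above the controls on both diets, which their choice by likeness to F11 makes likely. Over all genes the groups did not overlap for 13.9% on the low-fat diet and 12.2% on the high-fat diet. Nox4 ran from 8.91 to 9.07 in low-fat MSX and from 8.36 to 8.46 in low-fat control, and from 8.93 to 9.16 in high-fat MSX and from 8.13 to 8.44 in high-fat control. The 3 lowest were G0s2, an inhibitor of lipolysis (−0.93), Fam102a (−0.93) and Pdk4, a kinase that restrains glucose oxidation (−0.92). For these 3 the MSX arrays lay below the controls on both diets, which their choice makes likely as well. G0s2 ran from 8.12 to 8.65 in low-fat MSX and from 9.13 to 9.45 in low-fat control, and from 8.33 to 8.54 in high-fat MSX and from 8.96 to 9.21 in high-fat control. With group means removed the correlation with F11 was 0.54 for Nox4, 0.64 for Pcmtd2, 0.29 for Abcb10, 0.63 for Cd99l2 and 0.80 for Cyp2u1. It was −0.53 for G0s2, −0.32 for Fam102a and −0.59 for Pdk4. All of them were picked over the same 12 arrays, the MSX difference of F11 included, so that these values describe likeness only.

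**Figure D4:**
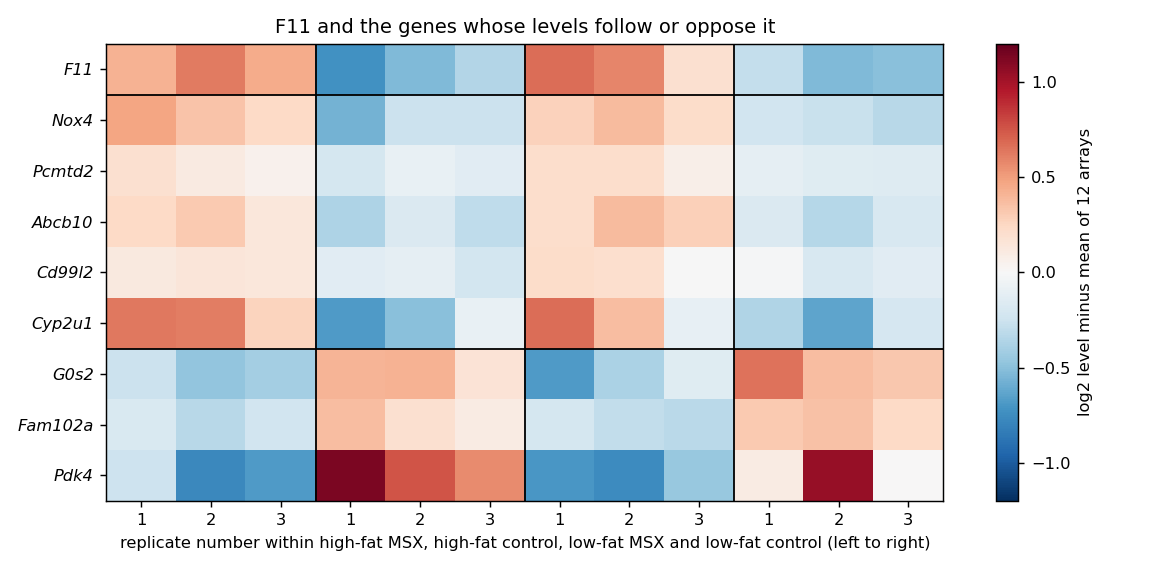
Level minus the mean of the 12 arrays (colour, log2 scale) for F11, the 5 genes of highest and the 3 of lowest correlation with it (rows), in the 12 arrays grouped as high-fat MSX, high-fat control, low-fat MSX and low-fat control (columns). F11 and the 5 genes, picked for that likeness, are higher in the MSX than in the control arrays on both diets. G0s2, Fam102a and Pdk4 are the other way round.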

How the data were processed

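RNA of 12 liver samples was measured on Affymetrix mouse arrays, 1 per sample. The deposited values are log2 probe set levels. Per the submitters' processing notes the authors made them in Affymetrix' Transcriptome Analysis Console. Version and normalization were not given in the sources used here. The 41345 probe sets had array medians between 4.68 and 4.75 and correlations between arrays of 0.973 to 0.984, and values were used as deposited. The platform annotation listed 25335 probe sets, 23521 with 1 gene symbol and 1814 with several. Those with 1 symbol gave 22180 genes, each by its probe set of highest mean. RefSeq tables (GRCm38.p6) gave current names, neighbours and promoter sequences.

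Group means of all 12 arrays were fitted with limma 3.58.1 in R 4.3.3 (eBayes, two-sided, 8 residual and 5.18 prior degrees of freedom). p-values were adjusted by Benjamini-Hochberg over 22180 genes, with a threshold of 0.05. Intervals are at 95% and not adjusted for the number of genes. p-values rest on the spread of arrays within groups, and 3 arrays per group limit the precision. The fit was tested on simulated data.

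The members, lists and comparisons were chosen with earlier results of these data known. Genes named beyond the 10 were, per list, the 2 of lowest p for the extract on the low-fat diet and the 2 for the diet without extract, the 5 genes most and the 3 least correlated with F11, and its neighbours, with provisional names left out of the correlated genes. The fibrinogen chains, Hnf4a, Cebpa and Cebpb and the marker extremes were named after their values were seen.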

Additional observations from a re-analysis of the deposited data

How the results depend on the processing

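F11 kept a positive extract difference on the low-fat diet in all 20 other ways of processing, but many of these could not move it. The difference was free to change only with quantile normalization, median centring, array weights or a low-fat array left out. Among the 8 that leave no array out, the difference lay between 0.89 and 0.95 and the call was kept in 6. The number of the 9 genes past the threshold on the low-fat diet was 0 instead of 1 with only the 2 groups of the comparison in the fit (F11 adjusted p = 0.152) and 0 with the replicate number as a block (replicate block, adjusted p = 0.0836), and 0 to 1 with each array left out. Whether the replicate numbers pair the arrays was not settled. The correlation of deviations lay between −0.126 and 0.112 over 18 same-numbered pairs (median −0.012, 2 above 0.1). Over 36 different-numbered pairs it lay between −0.0947 and 0.164 (median −0.006, 1 above 0.1). Between high-fat control and high-fat MSX the same-numbered pairs were at 0.106, 0.0798 and 0.112, and all different-numbered pairs were negative. Deviations cancel within a group, so positive same-numbered values push the different-numbered ones below 0. Between low-fat control and high-fat MSX the same-numbered pairs were at 0.0166, −0.126 and −0.0799. The other 8 genes gained 0 calls in the tested comparisons under any alternative. Their lowest limma adjusted p was 0.538 and their largest move 0.12. Signs changed in 45 of 892 recomputed differences, none of them called. Many of the 892 came from settings that could not move the difference. F11 relative to the other 8 genes (0.88) was an alternative added after seeing the data. Of all genes, 35 passed for the extract on the low-fat diet, against 23 with probe sets averaged, 71 with dim genes left out, 77 with a trended robust prior, 10 with only the 2 groups, 20 with the replicate block and 6 to 28 with each array left out. For the diet without extract 4 passed, against 11 with dim genes left out, 11 with the trended robust prior and 1 to 7 with each array left out, and for the diet with extract 0 passed, against 0 to 1. Why the counts moved was not tested beyond the smaller number of arrays or genes. Dim genes, such as Gm6329, carry little signal to read a difference from.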
